A study of Caenorhabditis elegans with 16 samples.

Results

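The miRNAs examined here are those from miR-230 to miR-273 in the mature miRNA column of the Caenorhabditis elegans count files, leaving out 12 names in that range (miR-233, miR-237, miR-238, miR-239a, miR-239b, miR-240, miR-241, miR-246, miR-247, miR-248, miR-250 and miR-253). The rule uses names and not read counts, and each miRNA it takes is listed for a single precursor. The rule found 42 mature miRNAs from 28 precursor genes, of 434 mature miRNAs in all. The study pulled chosen mRNAs out of UV-crosslinked young adult worms with biotinylated DNA probes (vIPR) and sequenced the small RNAs that came along. It compared 8 groups in 16 libraries. The lin-41 pulldown (2 libraries), the alg-1 pulldown (2) and the gld-1 pulldown (2) took the endogenous transcripts from wild-type N2 worms with probes against each transcript. The gfp::lin-41 pulldown (1 library, strain DG3913, an endogenously tagged lin-41) and the gld-1::gfp pulldown (2, strain BS1080, a transgene) were made with gfp probes. The changed specificity (2) and seed destruction (2) pulldowns used gld-1 probes in N2 worms whose endogenous gld-1 3′ UTR was CRISPR-edited, to turn its miR-84 site into a let-7 site or to remove its pairing with the miR-84 seed. The control (3 libraries) was a gfp-probe pulldown from N2 worms, which hold no gfp target. Group and probe set therefore change together between the control and every pulldown that used transcript probes, and the parts of target and probe in such a difference cannot be told apart. The mRNA pulled down is not counted in these small RNA libraries, so its recovery could not be checked here.

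A miRNA is cut from a hairpin precursor, and either arm of the hairpin (5p or 3p) can be loaded into an Argonaute protein such as ALG-1, which it guides to mRNAs by pairing through its seed, the bases near its 5′ end. The other arm is usually degraded, so most loci show 1 prevailing product. lin-41 encodes a TRIM-NHL protein and is the classical let-7 target, gld-1 encodes a KH-domain translational repressor of the germline, and alg-1 encodes the Argonaute itself. A pulldown of an mRNA can carry along the miRNAs bound to it, over a background of small RNAs that stick to the probes or beads.

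Reads were few. The 42 miRNAs drew 5496 reads over all libraries, between 0.0261% of the miRNA reads (changed specificity replicate 1) and 0.544% (control replicate 2). At least 1 read was seen for 23 of them and none for 19. Of those 23, 4 were read in every library (miR-230-3p, miR-235-3p, miR-243-3p and miR-252-5p). The names from miR-230 to miR-259 held 22 of the 23, out of 31 listed. Of the 11 listed from miR-261 to miR-273, only miR-266 was read, with 6 reads in all and at most 3 in a library. The share read was 54.8% here, against 60.2% of the other 392 miRNAs of the files.

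A small number of miRNAs made up nearly all of these reads. miR-252-5p alone gave 54.0%, miR-235-3p 17.01%, miR-230-3p 12.2%, miR-243-3p 4.62%, miR-259-5p 4.11%, miR-230-5p 1.89% and miR-245-3p 1.76%. A test was made only where 2 or more libraries had 10 reads or more. These 7 met that minimum and held 95.6% of the reads. The other 16 that were read stayed below it. The share that met it was 16.7% here, against 26.8% of the remaining miRNAs in the files.

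**Figure D1:**
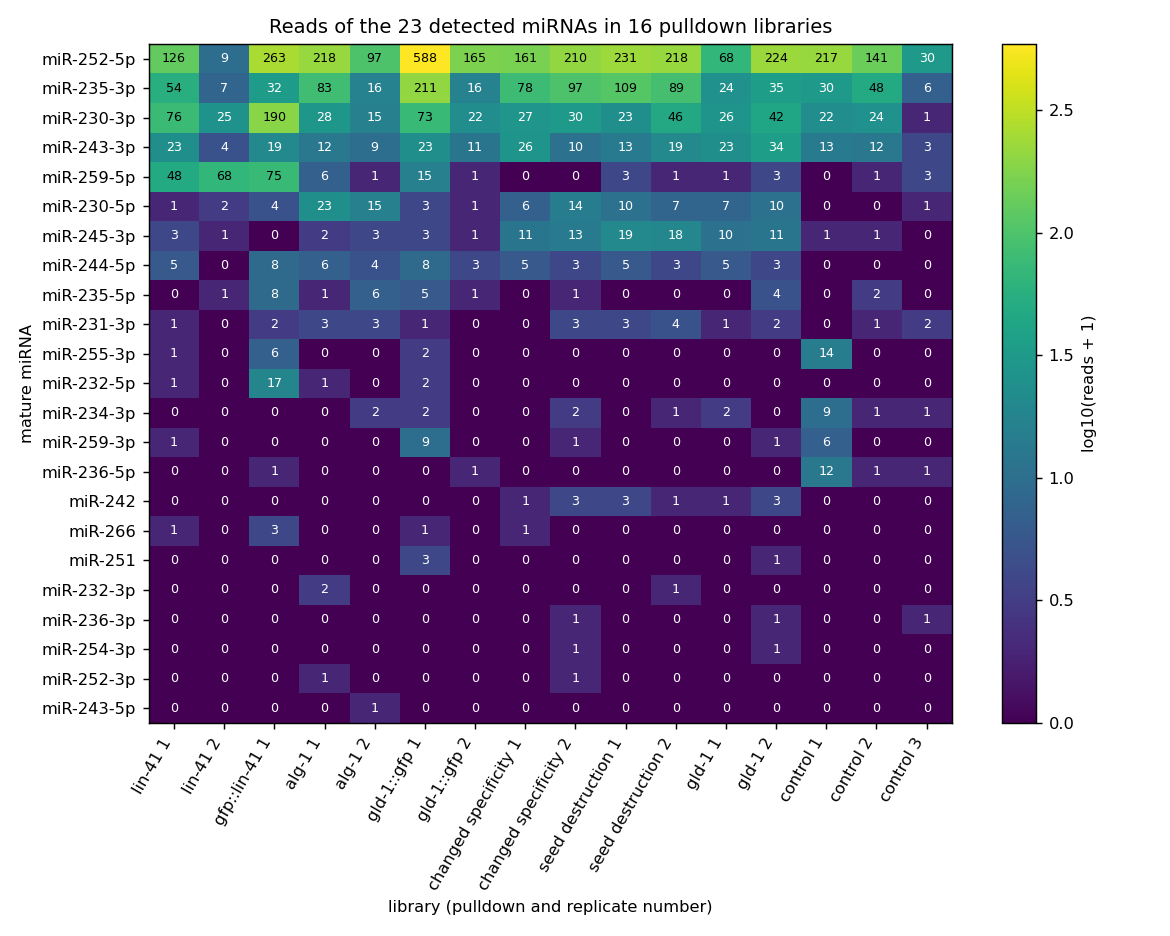
Reads of the 23 detected miRNAs (rows, ordered by total) in each of the 16 libraries (columns, pulldown and replicate number). The printed number is the raw read count and the colour is log10(reads + 1). miR-252-5p holds the highest count in 15 of the 16 libraries (not in lin-41 replicate 2), miR-259-5p stands out in the 3 libraries of lin-41 and gfp::lin-41, and miR-242 has reads only in the 6 libraries made with gld-1 probes.

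Depth differed widely and limits every comparison. Library totals ran from 12474 miRNA reads (control replicate 3) to 2081849 (gfp::lin-41), and all 3 control libraries lay below every other library. Control replicate 3 stands apart with only 49 reads of the miRNAs described here. The scaling factors (trimmed mean of M values, TMM) ran from 0.155 to 5.32. Normalised CPM below are read counts scaled by the TMM-corrected library size, and a log2 fold change is relative to the bulk of the 112 miRNAs tested. The median log2 fold change of those 112 lay within 0.1 of 0 except in changed specificity against gld-1 (-0.37), gld-1::gfp against control (-0.30), lin-41 against alg-1 (-0.24), changed specificity against control (-0.21), gld-1 against control (0.20) and seed destruction against gld-1 (-0.15). Adjusted p-values are from edgeR's quasi-likelihood test over the 112 miRNAs, with a threshold of 0.05.

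Across the 7 groups that had replicates, 3 of the 7 tested miRNAs differed between groups, against 37.5% of the 112. They were miR-259-5p (edgeR adjusted p = 9.0e-06), miR-230-5p (0.00811) and miR-245-3p (0.00811). The call of miR-230-5p was lost without alg-1 replicate 2 or gld-1::gfp replicate 1. That of miR-245-3p was lost with the prefix of the library names (described below) as a factor. miR-235-3p (edgeR adjusted p = 0.371), miR-230-3p (0.376), miR-243-3p (0.654) and miR-252-5p (0.668) did not pass. Those 3 were high in different pulldowns: miR-259-5p with lin-41, miR-230-5p with alg-1 and, less so, with gld-1 probes, and miR-245-3p with gld-1 probes.

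**Figure D2:**
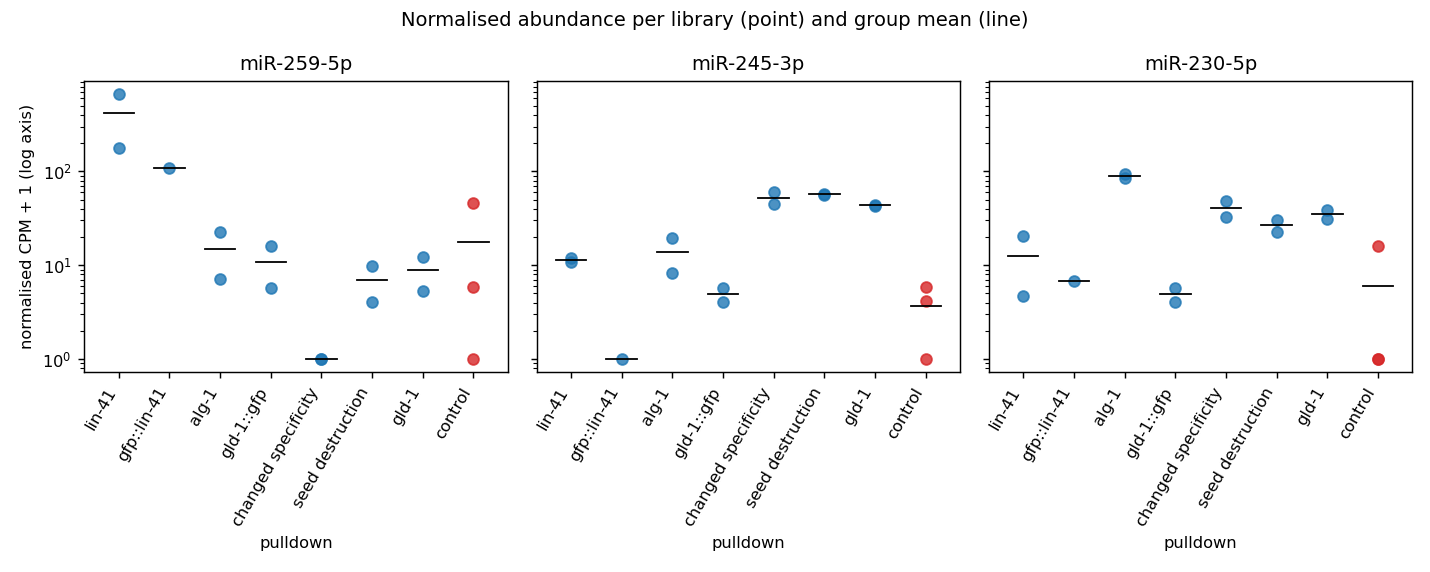
Normalised CPM + 1 (log axis) of miR-259-5p, miR-245-3p and miR-230-5p in each library (points) and the mean of each pulldown (lines), with the control in red at the right. miR-259-5p is highest in the lin-41 libraries (177 and 663 CPM), miR-245-3p in the 6 libraries made with gld-1 probes (41.3 to 58.7 CPM) and miR-230-5p in the alg-1 libraries (83.4 and 92.3 CPM).

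miR-259-5p was enriched in the lin-41 pulldowns. It comes from mir-259, which lies between genes on chromosome V (10539025 to 10539125, minus strand, WBcel235). It had 48 and 68 reads in the lin-41 libraries, 75 in the gfp::lin-41 library, 6 and 1 in alg-1, 15 and 1 in gld-1::gfp, 0 and 0 in changed specificity, 3 and 1 in seed destruction, 1 and 3 in gld-1, and 0, 1 and 3 in the control. As normalised CPM this was 177 and 663 in lin-41 and 108 in gfp::lin-41, while alg-1 had 21.8 and 6.16, gld-1::gfp 15.2 and 4.74, seed destruction 8.89 and 3.09, gld-1 4.33 and 11.3, and the control 0, 4.90 and 45.3. Both lin-41 libraries and the gfp::lin-41 library lay above all 13 others. The 45.3 CPM of control replicate 3 rests on 3 reads.

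The enrichment in lin-41 passed the test against each of the 3 groups it was compared with. Outside the lin-41 and gfp::lin-41 libraries, miR-259-5p reached 10 reads only in gld-1::gfp replicate 1 (15 reads). It therefore met the minimum for a test through the libraries where it was high. Against the control the log2 fold change was 5.43 (SE 1.18, edgeR adjusted p = 0.00133), and 1 of the 7 tested miRNAs was called, against 17.9% of the 112. Against gld-1 it was 5.64 (SE 1.31, edgeR adjusted p = 0.00293), again with 1 call among the 7, against 15.2% of the 112. Against alg-1 it was 4.76 (SE 1.24, edgeR adjusted p = 0.00600), with 1 call among the 7, against 17% of the 112. All 3 comparisons share the same lin-41 libraries. With library totals in place of TMM factors the calls against the control (2.21, edgeR adjusted p = 0.144) and against alg-1 (3.27, 0.0619) were lost, and the call against gld-1 was kept. The call against the control held with each library left out in turn (log2 fold change 4.16 to 7.45, edgeR adjusted p at most 0.0471). The call against gld-1 was lost without gld-1 replicate 1 (5.16, edgeR adjusted p = 0.0514). The call against alg-1 was lost without lin-41 replicate 2 (3.54, edgeR adjusted p = 0.121), alg-1 replicate 1 (5.97, 0.0560) or alg-1 replicate 2 (4.62, 0.0748).

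Most library names start with E, PD1, PD2 or PD3. The labels do not say what this prefix means, and it was treated as a possible batch. Within PD2, miR-259-5p had 48 reads in lin-41 and 1 in the control, a log2 difference in normalised CPM of 4.21 after adding 1 read. Within PD2 it was 2.83 against alg-1 (48 and 6 reads), and within PD3 it was 6.28 against gld-1 (68 and 1 reads). The direction was thus the same inside each prefix that held both groups.

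The same miRNA can be read without any scaling between libraries, as its share of the reads of the 42 miRNAs. It made up 14.1% and 58.1% in the lin-41 libraries and 11.9% in gfp::lin-41, against 0.245% to 1.58% in the gld-1::gfp, alg-1, seed destruction and gld-1 libraries, 0% in both changed specificity libraries, and 0%, 0.431% and 6.12% in the control. Ranked by reads among the 434 miRNAs of a library, it stood at rank 53 and 31 in lin-41 and 63 in gfp::lin-41, against rank 70 or beyond in each control library. The spread between the 2 lin-41 libraries was itself large, since replicate 2 held only 117 reads of the 42 miRNAs and 68 of them were miR-259-5p.

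The gfp::lin-41 library used the gfp probes of the control and another strain, so it reached lin-41 without the lin-41 probes. With 1 library it had no test. Beside the 75 reads of miR-259-5p (108 normalised CPM), a log2 difference of 3.49 from the control, it held 190 reads of miR-230-3p, 272.5 CPM and a log2 difference of 1.91 from the control. The difference of miR-259-5p was 2.54 without control replicate 1, 5.50 without control replicate 3 and -0.44 with library totals. For miR-230-3p the lin-41 libraries had 281 and 244 CPM, and the control had 68.5, 118 and 15.1. These 3 lin-41 libraries were the highest of all 16 for miR-230-3p too. In lin-41 against control, however, miR-230-3p did not pass (log2 fold change 1.86, SE 0.743, edgeR adjusted p = 0.0941). Against gld-1 it was 0.96 (edgeR adjusted p = 0.543) and against alg-1 1.43 (edgeR adjusted p = 0.263).

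miR-245-3p had its highest levels in the pulldowns made with gld-1 probes. Its gene, mir-245, lies between genes on chromosome I (7887371 to 7887467, plus strand). It had 11 and 13 reads in changed specificity, 19 and 18 in seed destruction and 10 and 11 in gld-1, against 1, 1 and 0 in the control. The lin-41 libraries had 3 and 1 reads, alg-1 2 and 3, gld-1::gfp 3 and 1, and gfp::lin-41 none in the deepest library. In normalised CPM the 6 libraries with gld-1 probes lay between 41.3 and 58.7, and all 10 others between 0 and 18.5. These 6 held 82 of its 97 reads.

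Against the control, miR-245-3p was higher in gld-1 (log2 fold change 3.52, SE 1.15, edgeR adjusted p = 0.0275). It met the minimum for a test only through the libraries with gld-1 probes, where it was high. Because the control held only 2 reads, the ratio of the pooled rates, 12.5, has a counting interval of 3.05 to 110. Together with miR-230-5p this made 2 calls among the 7 in gld-1 against control, against 22.3% of the 112. The call was lost without gld-1 replicate 1 (log2 fold change 3.49, edgeR adjusted p = 0.109), gld-1 replicate 2 (3.55, 0.114) or control replicate 1 (3.42, 0.0713), with a log2 fold change of 3.33 to 3.89 over all libraries left out. Within PD1, where 1 library of each is found, gld-1 had 11 reads and the control 0, a log2 difference of 1.58 after adding 1 read. The other tested miRNAs described here ran from -2.01 (miR-259-5p) to 2.42 (miR-230-3p) between these libraries.

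The edited strains were set against the control after these values had been seen, and they share its libraries with the gld-1 comparison. miR-245-3p was higher in seed destruction (log2 fold change 3.92, SE 1.12, edgeR adjusted p = 0.0129), the only call among the 7, against 17.9% of the 112. It was also higher in changed specificity (3.78, SE 1.138, edgeR adjusted p = 0.0165), where miR-230-5p was called too, so that 2 of the 7 were called, against 21.4% of the 112. The pooled rates were 16.5 times those of the control in seed destruction (interval 4.27 to 142) and 14.6 times in changed specificity (3.63 to 128). The calls of miR-245-3p were lost without seed destruction replicate 1 (edgeR adjusted p = 0.0581) and without changed specificity replicate 1 (edgeR adjusted p = 0.0530). With the name prefix as a factor in the fit, the log2 fold changes of miR-245-3p were 3.12 in gld-1 (SE 1.74, edgeR adjusted p = 0.210), 3.69 in seed destruction (SE 2.04, 0.169) and 3.54 in changed specificity (SE 2.06, 0.176) against the control, and none passed. The edited strains (PD3 or no prefix) share no prefix with the control (E, PD1 and PD2). In this fit they are therefore compared with it only by way of other groups. With library totals the same 3 log2 fold changes of miR-245-3p were 1.37 (edgeR adjusted p = 0.371), 3.40 (0.0712) and -0.33 (0.830), so that the direction in changed specificity turned. Without the filter on low counts they were 3.50 (edgeR adjusted p = 0.110), 3.91 (0.0500037) and 3.77 (0.0710), and again none passed.

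miR-245-3p was lower in the gld-1::gfp transgene caught by gfp probes than in gld-1 caught by its own probes. It had 3.03 and 4.74 CPM in gld-1::gfp, against 43.3 and 41.3 in gld-1. In this comparison, also added after the values were seen, the log2 fold change was -3.44 (SE 1.142, edgeR adjusted p = 0.0490), 1 call among the 7, against 11.6% of the 112. The call was lost whichever of the 4 libraries was left out (log2 fold change -3.48 to -2.38, edgeR adjusted p up to 0.559). The lowest of these p-values was 0.141. miR-230-5p pointed the same way without passing (-3.13, SE 1.23, edgeR adjusted p = 0.119). Transgene and endogenous transcript differ here in strain as well as in probes, and these cannot be told apart.

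In gld-1::gfp against control 0 of the 7 tested miRNAs were called by edgeR, against 12.5% of the 112. The count was also 0 at an unadjusted p under 0.05 and 0 by DESeq2, and their log2 fold changes lay between -0.42 (miR-243-3p) and 0.74 (miR-230-5p). miR-259-5p had 15 and 1 reads in gld-1::gfp (15.2 and 4.74 CPM), a log2 fold change of 0.29 (SE 1.22, edgeR adjusted p = 0.894).

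A rarer miRNA was seen in the same 6 libraries. miR-242, whose gene lies on chromosome IV (4274247 to 4274342, plus strand) opposite the 3′ UTR of nhr-78, had 1 and 3 reads in changed specificity, 3 and 1 in seed destruction and 1 and 3 in gld-1. The 10 other libraries, 2 of them deeper than any of these 6, had 0. With 12 reads it fell below the minimum for a test, and it was picked out after its counts were seen. Among the 23 detected miRNAs, miR-254-3p was the only other one read with gld-1 probes and in no other library, with 2 reads.

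miR-230 was read from both arms, in shares that ranged widely between pulldowns. The gene lies on the X chromosome (5803892 to 5803989, plus strand), 5360 bases from mir-791. miR-230-5p had 23 and 15 reads in alg-1 (83.4 and 92.3 CPM), against 0, 0 and 1 in the control (0, 0 and 15.1 CPM). The libraries with gld-1 probes came next, with 6 and 14 reads in changed specificity (32.0 and 47.1 CPM), 10 and 7 in seed destruction (29.6 and 21.6 CPM) and 7 and 10 in gld-1 (30.3 and 37.6 CPM). The lin-41 libraries had 1 and 2 reads, gfp::lin-41 4 and gld-1::gfp 3 and 1, between 3.03 and 19.5 CPM. Both alg-1 libraries were above all others, and the 6 libraries with gld-1 probes were above the 8 that remained.

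miR-230-5p met the minimum for a test only through alg-1 and the libraries with gld-1 probes, where it was high. The excess of miR-230-5p in alg-1 over the control was called (log2 fold change 5.23, SE 1.32, edgeR adjusted p = 0.00362). It was the only call among the 7, against 21.4% of the 112. It held with each library left out (4.30 to 7.84, edgeR adjusted p at most 0.0388) and was lost with library totals (3.80, edgeR adjusted p = 0.0653). With a mean of at least 10 reads as the filter, miR-230-5p was not tested. As the control held 1 read, the ratio of pooled rates, 51.3, has a counting interval of 8.67 to 2079. Within PD2 the reads were 23 in alg-1 and 0 in the control, and within PD1 15 and 1, log2 differences of 4.15 and 1.71 after adding 1 read. For miR-230-3p they were 28 and 24 within PD2 and 15 and 1 within PD1, log2 differences of -0.22 and 1.71. Set against alg-1 the lin-41 libraries were lower in miR-230-5p (-3.19, SE 1.25), but the difference did not pass (edgeR adjusted p = 0.0819).

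With gld-1 probes the 5p arm also exceeded the control. The log2 fold change was 3.88 in gld-1 (SE 1.38, edgeR adjusted p = 0.0437) and 4.10 in changed specificity (SE 1.37, edgeR adjusted p = 0.0287), while seed destruction did not pass with all libraries (3.47, SE 1.39, edgeR adjusted p = 0.0823) and passed without control replicate 3. All 3 rest on the single read of the control, with counting intervals of 3.17 to 846 for the ratio of 20.2 in gld-1, 3.90 to 1011 for 24.4 in changed specificity and 2.38 to 635 for 15.2 in seed destruction. In gld-1 the call held only without control replicate 3, and was lost without gld-1 replicate 1 (edgeR adjusted p = 0.105), gld-1 replicate 2 (0.180), control replicate 1 (0.163) or control replicate 2 (0.0960). In changed specificity it was likewise lost without any library but control replicate 3 (edgeR adjusted p = 0.0531, 0.138, 0.0922 and 0.0797). With the name prefix as a factor the log2 fold changes were 2.99 in gld-1 (SE 1.81, edgeR adjusted p = 0.252) and 3.098 in changed specificity (SE 2.23, 0.284). They were 1.72 (edgeR adjusted p = 0.396) and 0.19 (0.931) with library totals, and 3.82 (0.111) and 4.05 (0.0810) without the filter, and none of these passed. Changed specificity shares no prefix with the control, so the fit with the prefix compares them only by way of other groups. Within PD1 gld-1 had 10 reads and the control 1, a log2 difference of 0.45 after adding 1 read. miR-230-3p had 42 and 1 reads in the same libraries, a larger log2 difference of 2.42.

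The 3p arm of miR-230 was not called in these groups. miR-230-3p had 28 and 15 reads in alg-1 (102 and 92.3 CPM), against 22, 24 and 1 in the control (68.5, 118 and 15.1 CPM), a log2 fold change of 0.43 (SE 0.761, edgeR adjusted p = 0.780). In gld-1 it had 113 and 158 CPM, a log2 fold change of 0.91 from the control (SE 0.745, edgeR adjusted p = 0.399). The 5p arm was 46.9% of the miR-230 reads in alg-1 (95% Wilson interval 36.4 to 57.7, 81 reads), 26.0% in changed specificity (17.5 to 36.7, 77 reads), 19.8% in seed destruction (12.7 to 29.4, 86 reads) and 20% in gld-1 (12.9 to 29.7, 85 reads). It was 2.88% in lin-41 (0.986 to 8.14, 104 reads), 2.06% in gfp::lin-41 (0.805 to 5.18, 194 reads), 4.04% in gld-1::gfp (1.58 to 9.93, 99 reads) and 2.08% in the control (0.369 to 10.9, 48 reads). This ratio is taken inside a library and needs no scaling. The intervals cover counting error only, since the reads carry no molecular identifiers, and no test between groups was made on the shares.

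**Figure D3:**
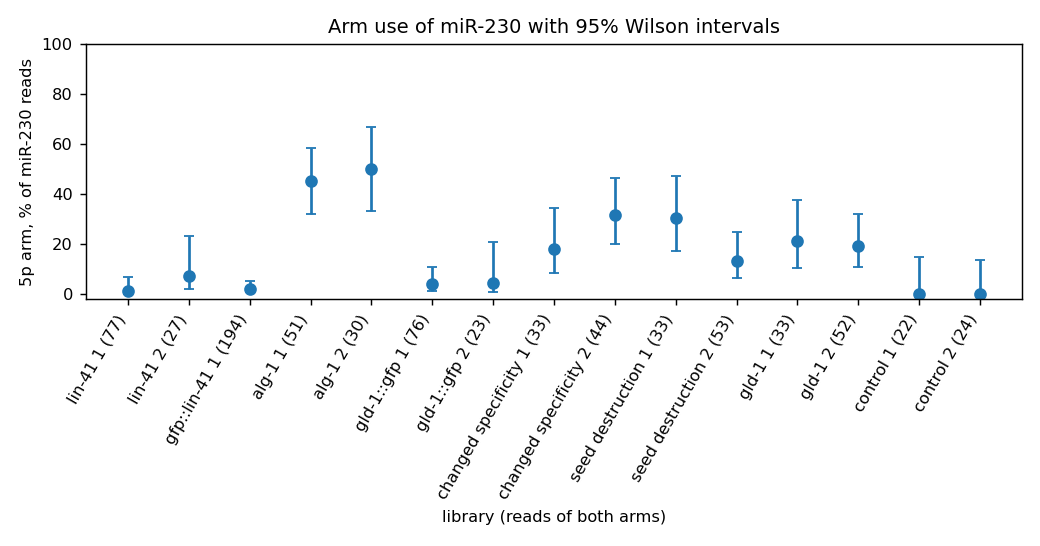
Share of the 5p arm among miR-230 reads (%) in each library with at least 10 reads of the locus, with 95% Wilson intervals and the number of reads in brackets. The 2 alg-1 libraries lie at 45.1% and 50%, the 6 libraries made with gld-1 probes between 13.2% and 31.8%, and all others between 0% and 7.41%.

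At the other loci most reads came from 1 arm. Of the 28 loci, 14 list both arms, 12 of these had enough reads (10) for a share, and 7 were mostly 3p and 5 mostly 5p. Among those 5, miR-232 had 17 of its 21 5p reads in gfp::lin-41, and miR-236 had 12 of its 16 in control replicate 1. The shares of miR-232 and miR-236 therefore rest mainly on 1 library each. miR-252 was 99.9% 5p over 2968 reads, with a lowest library of 99.5%, and miR-245 gave 0% 5p over 97 reads. miR-243 was 0.392% 5p over 255 reads, and all 58 reads of miR-244 were 5p. miR-235 was 3.01% 5p over 964 reads and was highest in alg-1 replicate 2 (27.3%, 13.2 to 48.2, 6 of 22 reads) and in gfp::lin-41 (20%, 10.5 to 34.8, 8 of 40 reads). miR-259 was 92.6% 5p in all. It was 99.1% in lin-41 and 100% in gfp::lin-41, against 64.0% (44.5 to 79.8, 25 reads) in gld-1::gfp and 40.0% (16.8 to 68.7, 10 reads) in the control. The 3p reads of miR-259 came mostly from gld-1::gfp replicate 1 (9) and control replicate 1 (6), so the rise in lin-41 was one of the 5p arm.

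The 4 miRNAs that were read in every library included the most abundant ones, and none of them was called by edgeR with TMM factors, the filter above, a mean per group and all libraries. Other settings called some of them. With the name prefix as a factor, miR-235-3p and miR-252-5p were called in both changed specificity and seed destruction against control, and miR-252-5p over the 7 groups. Of the 112 that fit called 35, 34 and 61, in the same order. Those edited strains share no prefix with the control, so that fit compares them only by way of other groups. With library totals each of the 4 was called over the 7 groups, but so were 107 of the 112 in all. miR-230-3p was called in lin-41 against control with RLE factors, with DESeq2 and without control replicate 2. miR-252-5p, which belongs to a family with miR-251, comes from the strand opposite an intron of W02B12.13 on chromosome II (11446863 to 11446960, minus strand). Its normalised CPM were 465 and 87.8 in lin-41, 377 in gfp::lin-41, 791 and 597 in alg-1, 594 and 783 in gld-1::gfp, 859 and 706 in changed specificity, 684 and 674 in seed destruction, 295 and 841 in gld-1, and 676, 691 and 453 in the control. The low value is lin-41 replicate 2, with 9 reads, and lin-41 overlapped the control (log2 fold change -1.10, SE 0.655, edgeR adjusted p = 0.278). Without lin-41 replicate 1, that is with replicate 2 alone, miR-252-5p was called in lin-41 against control and against alg-1. miR-251, by contrast, had 4 reads in all.

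miR-235-3p, the worm counterpart of the miR-92 family, had 416 and 326 CPM in changed specificity and 323 and 275 in seed destruction, against 104 and 131 in gld-1. The edited strains lay above gld-1 without overlap, but neither difference passed (1.65, SE 0.822, edgeR adjusted p = 0.587 in changed specificity and 1.34, SE 0.815, edgeR adjusted p = 0.742 in seed destruction). The alg-1 libraries (301 and 98.5 CPM) and the control (93.4, 235.1 and 90.6 CPM) covered much the same range. miR-243-3p, known for setting off secondary siRNAs on a target with near-perfect pairing, comes from an intron of R08C7.12 on chromosome IV (4450779 to 4450876, plus strand). It had 99.7 and 128 CPM in gld-1, against 40.5, 58.8 and 45.3 in the control, which did not pass (1.23, SE 0.816, edgeR adjusted p = 0.294). Its other libraries ranged from 23.3 to 139 CPM.

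With TMM factors none of these miRNAs was called between the edited and the unedited gld-1 transcript. In seed destruction against gld-1, 0 of the 7 passed the edgeR test and 0 had an unadjusted p under 0.05, against 1.79% of the 112 called. DESeq2 called 0 as well. In changed specificity against gld-1 the counts were also 0 by edgeR, 0 at an unadjusted p under 0.05 and 0 by DESeq2, against 2.68% of the 112 called. With library totals in place of TMM factors miR-243-3p was called there, as 1 of 33 calls among the 112. miR-245-3p had 58.7 and 43.7 CPM in changed specificity and 56.3 and 55.6 in seed destruction, against 43.3 and 41.3 in gld-1, log2 fold changes of 0.26 (SE 0.9503) and 0.40 (SE 0.934). miR-230-5p differed from gld-1 by 0.23 (SE 1.04) in changed specificity and by -0.40 (SE 1.04) in seed destruction. With SEs of this size, differences of several fold could be missed. miR-259-5p had no reads in changed specificity, and gld-1 itself had 1 and 3.

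**Figure D4:**
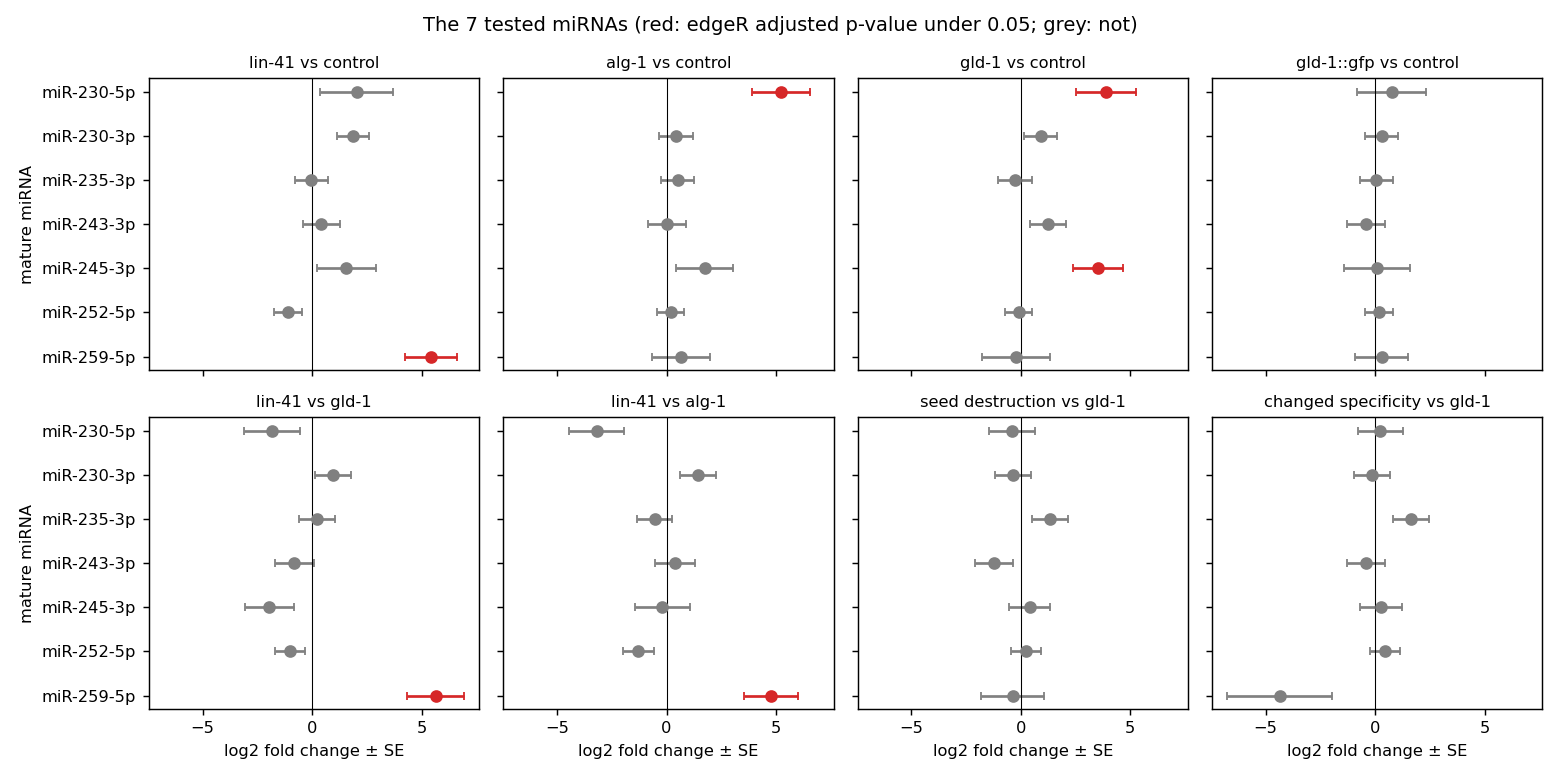
Log2 fold changes with their SE (bars) of the 7 tested miRNAs in 8 comparisons, red where the edgeR adjusted p-value was under 0.05 and grey elsewhere. Red points are miR-259-5p in the 3 lin-41 comparisons (5.43, 5.64 and 4.76), miR-230-5p in alg-1 (5.23) and gld-1 (3.88) against control, and miR-245-3p in gld-1 against control (3.52).

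The 16 miRNAs read below the minimum were mostly scattered, with several exceptions. miR-244-5p was read in 12 of the 13 libraries other than the controls, with 0 reads in lin-41 replicate 2, and in none of the 3 controls, which were the shallowest libraries. It had 6 and 4 reads in alg-1 and 8 and 3 in gld-1::gfp. Of its 58 reads 8 came from gfp::lin-41. miR-232-5p had 17 of its 21 reads in gfp::lin-41 and at most 2 in any other library. miR-231-3p was spread over 12 libraries with at most 4 reads in each.

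Control replicate 1 held most reads of another set. miR-255-3p had 14 reads there, against 6 in gfp::lin-41, 2 in gld-1::gfp replicate 1, 1 in lin-41 replicate 1 and 0 elsewhere. miR-236-5p, from the worm member of the miR-8/miR-200 family, had 12 in control replicate 1 and at most 1 elsewhere. miR-234-3p, the counterpart of miR-137, had 9 there and at most 2 elsewhere, and miR-259-3p had 6 there and 9 in gld-1::gfp replicate 1. Control replicates 2 and 3 held 0 to 1 reads of each of these 4, so 1 library sets their control level. The remaining detected miRNAs were miR-235-5p (at most 8 reads in a library), miR-232-3p, miR-236-3p, miR-243-5p, miR-251, miR-252-3p, miR-254-3p and miR-266 (at most 3).

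No reads were found for the 5p arms of miR-231, miR-234, miR-245, miR-254 and miR-255, for miR-244-3p, for either arm of miR-249, for miR-256, or for miR-261, miR-264, miR-265, miR-267, miR-268, miR-269, miR-270, miR-271, miR-272 and miR-273. In the deepest library a count of 0 allows up to 3 of 2081849 reads, and in the shallowest 3 of 12474. All 28 genes were found in the annotation, 19 outside any protein-coding gene and 9 overlapping one. They lie on all chromosomes (7 on X, 6 each on II and IV, 4 on V, 3 on I and 2 on III). Only mir-230 and mir-249 (1679 bases from mir-785) have another miRNA gene within 10 kb.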

How the data were processed

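Small RNA from 16 vIPR elutions of young adult worms was made into libraries with a poly(A)-tailing kit. Per the study's methods and the labels, the authors trimmed adaptors and poly(A) tails with cutadapt 1.14, removed Escherichia coli reads with Bowtie2 2.3.3.1 and counted known miRNAs with miRDeep2 and miRBase. The deposited values are raw read counts per mature miRNA and precursor. Groups came from the sample titles. Replicates are separate pulldowns per the study, but the labels do not name separate cultures, so p-values measure only the spread between these libraries, which may be technical. The members, lists and tests were chosen with earlier results of these data known.

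Tests used edgeR 4.0.16 (R 4.3.3). A miRNA was tested if 2 or more libraries had 10 reads or more, which gave 112 of 434, with 99.78% or more of any library's reads. TMM factors and 1 quasi-likelihood model over the 8 groups were used (common biological coefficient of variation 0.532), and Benjamini-Hochberg adjustment ran over the 112. SE is the log2 fold change divided by the root of F. Ratios of few reads carry exact conditional 95% intervals and arm shares Wilson intervals. The fit was run on counts simulated from the mean make-up of the control, with some miRNAs raised and others lowered in lin-41. Those counts did not copy the make-up of the pulldowns, so scaling between such unlike libraries was not tested. miRNAs were named if called, if tested, or if a locus had at least 10 reads in a library, and miR-259-5p always. Alternatives were RLE factors, library totals, no filter, a mean of at least 10 reads, DESeq2 1.42.0, the replicate block, the name prefix and leaving out each library. Genes were placed with Ensembl release 115 (WBcel235). Mature sequences were not used here.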

Additional observations from a re-analysis of the deposited data

Results flagged for a closer look

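The lin-41 pulldown differed from another endogenous pulldown in miR-259-5p, by a log2 fold change of 5.64 from gld-1 and of 4.76 from alg-1. The call against gld-1 was lost without gld-1 replicate 1. The call against alg-1 was lost without lin-41 replicate 2, without either alg-1 library and with library totals. miR-245-3p differed between gld-1::gfp and gld-1 by a log2 fold change of -3.44, and that call was lost whichever of the 4 libraries was left out.

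The gfp::lin-41 library was in no tested comparison. In it 5 miRNAs had at least 3 reads and lay above all 3 controls and above 5.07 normalised CPM, which is 3 reads over the controls together: miR-230-3p (272.5 normalised CPM), miR-259-5p (108), miR-232-5p (24.4), miR-235-5p (11.5) and miR-244-5p (11.5). miR-230-3p had at most 118 in the controls, miR-259-5p at most 45.3, miR-235-5p at most 9.80, and the other two none. The rule was not applied to the remaining miRNAs of the files, so no share over all is given. The library was also the deepest, with 2081849 reads against at most 73899 in a control.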

How the results depend on the processing

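Depth and scaling limit these results. miR-230-5p and miR-245-3p had 1 and 2 reads in the control, and the smallest control library held 12474 reads. Scaling by library totals alone moved the median of the 112 log2 fold changes to -3.63 in lin-41, -1.51 in alg-1, -2.14 in gld-1, -3.63 in gld-1::gfp and -4.39 in changed specificity against the control, -3.86 in gfp::lin-41 minus control and -2.12 in lin-41 against alg-1. Under it miR-259-5p in lin-41 against control was 2.21 (edgeR adjusted p = 0.144), which is 5.84 above that median (5.48 above it with TMM). Its difference in gfp::lin-41 became -0.44 (3.43 above the median), and miR-245-3p in changed specificity against control -0.33 (4.06 above it). The calls among the 7 miRNAs became 3 in lin-41, 0 in alg-1, 4 in gld-1::gfp, 5 in changed specificity and 0 in seed destruction against control, 2 in lin-41 against gld-1, 3 in lin-41 against alg-1, 1 in changed specificity against gld-1 (miR-243-3p) and 7 over all groups. Of the 112 it called 85, 37, 85, 91, 12, 21, 46, 33 and 107 in the same order. The 3 in lin-41 and 5 in changed specificity against control include none of the miRNAs called there with TMM. In gld-1 against control the count stayed at 2, but miR-235-3p and miR-252-5p took the place of miR-230-5p and miR-245-3p.

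Other settings moved fewer counts. RLE factors gave 2 calls in lin-41 against control (miR-230-3p and miR-259-5p), as did DESeq2. Of the 112 they called 19 and 21 there. Without the filter, and so with more miRNAs tested, there were 0 calls in gld-1, 0 in seed destruction and 0 in changed specificity against control, and 0 in gld-1::gfp against gld-1. Among all miRNAs tested that way 21, 20, 22 and 10 were called, in the same order. A mean of at least 10 reads removed miR-230-5p and miR-245-3p from the test, which left 0 calls in alg-1, 0 in gld-1, 0 in seed destruction and 0 in changed specificity against control, 0 in gld-1::gfp against gld-1 and 1 over all groups. Among all miRNAs that this filter kept 22, 23, 20, 23, 11 and 37 were called, in the same order. DESeq2 gave 0 in gld-1::gfp against gld-1, where it called 11 of the 112. The name prefix as a factor gave 0 in gld-1, 2 in seed destruction and 2 in changed specificity against control (miR-235-3p and miR-252-5p in both, and neither miR-230-5p nor miR-245-3p), and 0 in gld-1::gfp against gld-1. Of the 112 that fit called 31, 34, 35 and 16, in the same order. The edited strains share no prefix with the control, so that fit compares them only by way of other groups. The cause was not tested except where given.

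Replicate numbers did not pair the libraries on average: deviations of same-numbered libraries had a mean correlation of -0.031 over 42 pairs, with 12 above 0.1. The correlations ran from -0.489 (alg-1 and control, replicate 2) to 0.521 (changed specificity and seed destruction). Between groups of 2 libraries both replicate numbers give the same value, so the 42 pairs are not independent. Whether the edited strains were paired was not tested. With a replicate block there was 1 call in gld-1, 2 in seed destruction and 1 in changed specificity against control, and 0 in gld-1::gfp against gld-1. Of the 112 that fit called 20, 21, 23 and 9, in the same order. The untested difference of miR-259-5p in gfp::lin-41 was 5.59 with the block.

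With each library left out in turn the calls ranged from 1 to 2 in lin-41, 0 to 2 in gld-1, 0 to 2 in seed destruction and 0 to 2 in changed specificity against control, 0 to 1 in lin-41 against gld-1, 0 to 2 in lin-41 against alg-1, 0 to 0 in gld-1::gfp against gld-1 and 2 to 3 over all groups. The gfp::lin-41 difference of miR-259-5p ranged from 2.54 (without control replicate 1) to 5.50 (without control replicate 3). A group left with 1 library was assumed to vary like the others. The comparisons of seed destruction and changed specificity with the control and of gld-1::gfp with gld-1 were added after the data were seen.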
